A study of Mus musculus with 16 samples.

Results

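Immediate early transcription factors are the genes that a cell switches on first when serum, growth factors or stress reach it, without needing new protein synthesis. The 10 genes described here were Fos, Fosl1, Jun and Junb, which encode subunits of the dimeric factor AP-1, Atf3, which encodes a related stress-induced factor of the same basic leucine zipper class, Egr1 and Klf6, which encode zinc-finger factors, the short-lived response genes Ier2 and Ier3, and Myc, which encodes a factor of growth and ribosome synthesis. They were picked by gene symbol, and all 10 were found among the 24320 names of one deposited table and the 24394 names of each of the other 2.

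Their transcription usually starts when MAP kinases act on serum response factor (SRF) with its ternary complex partners, on CREB-type factors and on AP-1 already bound at the promoter. Their mRNAs decay quickly, so the levels follow a signal both up and down. In mouse embryonic stem (ES) cells, Myc and its relative Mycn also sustain growth in medium with leukemia inhibitory factor, and ERK signalling through such genes accompanies the exit from pluripotency.

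RNA-seq values came from 16 libraries of mouse ES cells labelled E14Tg2a.IV and C57BL/6, kept feeder-free with serum and leukemia inhibitory factor, in 8 groups of 2 (the growth protocol also names a CCE line). The Pml table held Pml-knockout and wild-type cells, both untreated. The arsenite table held wild-type cells after 2 h in 200 µM sodium arsenite, which causes oxidative and protein-damaging stress, and untreated wild-type cells. The Trim33 table held cells labelled Trim33 knockout and wild type with 50 ng/ml activin A, which signals through SMAD2 and SMAD3, and cells labelled Trim33 knockout and wild type with 10 µM SB431542, which blocks the activin-type receptors, each for 2 h. The labels name no vehicle control, and do not say whether a knockout line was 1 clone or whether the 2 libraries of each group are separate cultures. The p-values therefore cover the spread between libraries alone, which may be technical. The tables were normalised separately, and tests were made only within a table.

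The targeted genes checked the labels. Pml stood at 32.0 and 33.5 FPKM (fragments per kilobase of transcript, scaled to library size) in Pml-knockout cells, against 49.8 and 45.1 FPKM in wild-type cells. Pml RNA was thus lower but still present, and these levels do not show whether the protein was lost. Trim33 stood at 2.53 and 2.79 RPKM (the same for reads) in knockout cells with activin A, against 20.1 and 23.5 RPKM in wild-type cells with activin A. It went against the label with SB431542: the libraries labelled knockout read 18.3 and 24.6 RPKM, against 2.94 and 2.44 RPKM in the libraries labelled wild type. The Y-linked gene Eif2s3y fell to 1.102 and 0.753 FPKM in Pml-knockout cells, against 16.2 and 20.6 FPKM in wild-type cells, and followed Trim33 in the Trim33 table, with 0.0651 RPKM and a listed 0 in knockout cells with activin A, against 38.3 and 41.0 RPKM in wild-type cells with activin A. Other differences between the cell lines cannot be told apart from either knockout. The ES-cell markers Pou5f1, Sox2, Nanog, Zfp42, Esrrb, Dppa5a, Tdgf1 and Utf1 were above 0 in every group. Recovered depth was 46680000 to 47800000 reads in arsenite libraries and 47720000 to 48420000 in untreated ones, and 31140000 to 39400000 in the Trim33 table, and the depth of the Pml libraries is not known.

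The upstream sequences were searched for motifs of the factors named above. For 6 of the 10 genes, the 150 bases before the RefSeq start (build GRCm38.p6) are given 5′ to 3′ on the strand of the gene. Fosl1, Ier2 and Myc had no sequence in the source used and Egr1 was left out, so their motifs are not described. Capitals mark matches, on either strand, to the cyclic-AMP-response and AP-1-like octamer TGACNTCA, the shorter cyclic-AMP-response core TGACGT, the AP-1 heptamer TGANTCA, the TATA element TATAAA and the SRF-binding CArG box. TGACGT overlaps TGACNTCA where N is G.
Jun (chr4:95052223-95052372, minus strand): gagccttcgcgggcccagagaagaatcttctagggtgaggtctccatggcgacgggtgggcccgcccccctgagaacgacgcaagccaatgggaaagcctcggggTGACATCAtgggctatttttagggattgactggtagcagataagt
Klf6 (chr13:5861339-5861488, plus strand): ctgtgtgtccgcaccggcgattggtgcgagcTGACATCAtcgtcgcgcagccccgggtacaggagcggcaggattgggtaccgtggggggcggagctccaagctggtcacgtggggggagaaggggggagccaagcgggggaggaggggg
Fos (chr12:85473740-85473889, plus strand): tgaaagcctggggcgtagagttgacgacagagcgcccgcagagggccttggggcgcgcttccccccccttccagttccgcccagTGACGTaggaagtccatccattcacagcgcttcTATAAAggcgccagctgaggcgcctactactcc
Atf3 (chr1:191183334-191183483, minus strand): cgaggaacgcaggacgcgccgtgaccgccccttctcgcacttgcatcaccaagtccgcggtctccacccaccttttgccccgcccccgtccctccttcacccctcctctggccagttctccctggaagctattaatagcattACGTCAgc
Junb (chr8:84978749-84978898, minus strand): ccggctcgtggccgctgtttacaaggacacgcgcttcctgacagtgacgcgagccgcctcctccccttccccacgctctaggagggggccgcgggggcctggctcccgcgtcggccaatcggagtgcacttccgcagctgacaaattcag
Ier3 (chr17:35821563-35821712, plus strand): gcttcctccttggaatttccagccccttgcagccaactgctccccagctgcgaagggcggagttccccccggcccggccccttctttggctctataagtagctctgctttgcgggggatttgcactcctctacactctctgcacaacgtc
These are shown because Jun and Klf6, whose levels moved together as described below, each held the letters TGACATCA, at positions -45 to -38 and -119 to -112 from the start. The octamer TGACNTCA occurred in 5.70% of 32851 RefSeq promoters over the same window. Fos held TGACGT at -66 to -61 and TATAAA at -33 to -28, and Atf3 held TGACGT on the other strand at -8 to -3. TGACGT occurred in 5.15% of promoters, TATAAA in 7.57%, TGANTCA in 4.24% and the CArG box in 0.916%. Junb and Ier3 held none of these letters in this window. The matches are a description of the letters only.

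Setting Pml-knockout against wild-type cells addressed what PML, the scaffold protein of nuclear bodies, does to these genes. In limma on log2(value + 1), 7 of the 10 were called higher (adjusted p under 0.05), where 16.6% of 11648 genes tested were. Fosl1 is among the 7 and reached the test only through the knockout libraries, so it had to differ. Of the other 9 genes, 6 were called higher and 2 lower, with a median of 0.82 on the log2 scale. The median over all genes tested was -0.02, and 18.9% of them were called lower. Of the 10 genes tested, 7 lay higher and 2 lower without overlap between the 2 groups, where 69.4% of all genes did not overlap. For Fosl1 the filter fixed this in advance.

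Jun, the main transactivating AP-1 subunit, moved most. Jun (chromosome 4, 95049034 to 95052222, minus strand, 1 exon, GRCm38) read 12.1 and 11.6 FPKM in Pml-knockout cells, against 1.82 and 1.58 FPKM in wild-type cells. Both knockout libraries lay far above both wild-type libraries. The log2 fold change was 2.25 ± 0.09 (SE, limma adjusted p = 8.12e-07). Its exons overlap the antisense gene Junos by up to 232 bases, and the sources used here do not give whether strand was used in counting.

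Junb, a Jun paralogue that activates transcription more weakly, rose with a smaller fold change. It read 55.9 and 50.4 FPKM in Pml-knockout cells, against 31.5 and 27.8 FPKM in wild-type cells, without overlap between the groups. The log2 fold change was 0.82 ± 0.08 (SE, limma adjusted p = 9.46e-05). Junb (chromosome 8, 84974484 to 84978718, minus strand) shares up to 173 exonic bases with Prdx2.

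The partners that dimerise with Jun proteins were low. Fos, which cannot form homodimers and pairs with Jun proteins, read 4.82 and 3.72 FPKM in Pml-knockout cells, against 2.28 and 1.64 FPKM in wild-type cells (0.83 ± 0.14, limma adjusted p = 0.00274). Every knockout library lay above every wild-type library for Fos (chromosome 12, 85473890 to 85477273, plus strand). Without the filter on low values its adjusted p was 0.0508. Fosl1, a Fos relative without a strong activation domain, read 1.05 and 1.06 FPKM in Pml-knockout cells, against 0.606 and 0.113 FPKM in wild-type cells. It was tested only because both knockout libraries lay just over 1 FPKM, so its call (0.62 ± 0.18, limma adjusted p = 0.0257) is no support. Without the filter its adjusted p was 0.113, and without wild-type replicate 2 it was 0.103. Fosl1 (chromosome 19, 5447547 to 5455946, plus strand) also shares up to 1055 exonic bases with Ccdc85b.

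The make-up of the Jun family differed within each library, a measure that a single scaling factor per library cannot move. Jun made up 10.5% and 11.02% of the summed FPKM of Jun, Junb and Jund in Pml-knockout cells, against 1.99% and 1.96% in wild-type cells. Junb made up 48.6% and 47.7% in Pml-knockout cells, against 34.3% and 34.6% in wild-type cells. Jund, which in most cells is expressed without a stimulus, made up 40.9% and 41.2% in Pml-knockout cells, against 63.7% and 63.4% in wild-type cells. The most abundant family member by FPKM was thus Junb in both knockout libraries and Jund in both wild-type libraries. Among the Fos family, Fosl2 read 4.83 and 5.01 FPKM in Pml-knockout cells, against 0.880 and 1.03 FPKM in wild-type cells. It too reached the test through the knockout libraries, so these values are a description. Fosl2 made up 42.2% and 46.8% of summed Fos-family FPKM in Pml-knockout cells, against 21.4% and 32.9% in wild-type cells. Fos made up 42.2% and 34.7% in Pml-knockout cells, against 55.3% and 52.2% in wild-type cells.

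**Figure D1:**
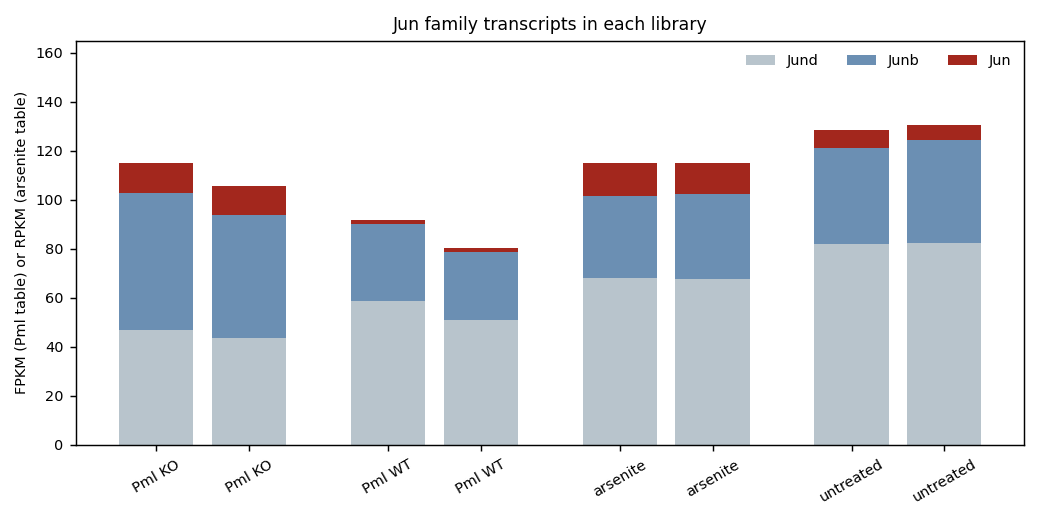
Stacked bars give the level of Jund, Junb and Jun in each library, in FPKM for Pml knockout and wild type and in RPKM for arsenite and untreated cells, from 0. The Jun part is 10.5% and 11.02% of the bar in Pml-knockout libraries, against 1.99% and 1.96% in wild-type ones.

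The zinc-finger genes rose together in Pml-knockout cells. Klf6, a GC-box-binding factor (chromosome 13, 5861482 to 5870394, plus strand, 4 exons), read 23.1 and 25.2 FPKM in Pml-knockout cells, against 9.74 and 10.4 FPKM in wild-type cells (1.19 ± 0.07, limma adjusted p = 9.62e-06). Egr1, the classic SRF-driven responder to ERK signalling (chromosome 18, 34859823 to 34864984, plus strand), read 26.3 and 25.6 FPKM in Pml-knockout cells, against 13.9 and 13.1 FPKM in wild-type cells (0.89 ± 0.07, limma adjusted p = 2.56e-05). For both genes the groups were well apart. Ier3, which encodes a short-lived protein tied to cell survival (chromosome 17, 35821684 to 35822923, plus strand), rose with them, at 21.1 and 22.3 FPKM in Pml-knockout cells, against 12.3 and 13.3 FPKM in wild-type cells (0.72 ± 0.07, limma adjusted p = 1.27e-04).

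Ier2, Myc and Atf3 did not rise. Ier2, a nuclear protein gene with 1 exon (chromosome 8, 84661331 to 84662852, minus strand), was the most abundant of the 10 in every library. It fell to 130.4 and 127 FPKM in Pml-knockout cells, against 185 and 166 FPKM in wild-type cells (-0.44 ± 0.06, limma adjusted p = 6.66e-04). Myc (chromosome 15, 61985391 to 61990374, plus strand) fell to 38.5 and 39.6 FPKM in Pml-knockout cells, against 46.2 and 46.9 FPKM in wild-type cells. This fall was -0.25 ± 0.05 on the log2 scale (limma adjusted p = 0.00747), and the adjusted p was 0.05002 without knockout replicate 1. Atf3 (chromosome 1, 191170296 to 191218039, minus strand) read 3.49 and 4.16 FPKM in Pml-knockout cells, against 3.72 and 3.605 FPKM in wild-type cells, with groups that overlapped (0.05 ± 0.10, limma adjusted p = 0.770).

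Markers of other cells moved with the Pml knockout. Of 9 trophectoderm markers tested, 9 rose, and the summed level of all 11 was 748 to 759 FPKM in Pml-knockout cells, against 67.5 to 72.3 FPKM in wild-type cells. Of 9 fibroblast markers tested, 8 rose and 1 fell. Their sum over 12 was 665 to 705 FPKM in Pml-knockout cells, against 204 to 215 FPKM in wild-type cells, where Postn and Lum were listed at 0. All 6 tested two-cell-like markers rose and 3 of 4 primitive endoderm markers fell. The 10 two-cell-like markers summed to only 5.43 to 5.76 FPKM in wild-type cells, so not all 6 could reach 1 FPKM there. Markers of any list that reached the test only through 1 group had to differ, and they were not set apart. Over all genes tested, 16.6% were called higher and 18.9% lower. Of 8 ES-cell markers 3 fell, with sums of 7693 to 7948 FPKM in Pml-knockout cells, against 8074 to 8101 FPKM in wild-type cells. The part of such cells in the changes of the immediate early genes was not tested, and in bulk samples fewer cells of a type and less RNA per cell cannot be told apart.

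The arsenite comparison addressed the response of ES cells to arsenite, which acts on PML directly. The immediate early genes did not move as a group: 2 of the 9 tested were called higher, where 40.7% of 12136 genes tested were, and 6 were called lower, where 27.0% were. The median over the 9 was -0.60 on the log2 scale, beside 0.08 over all genes tested. With quantile normalization 49.0% of all calls were higher, against 60.1% on the deposited scaling, and each of the 8 calls of the immediate early genes kept its direction and passed in every alternative that tested the gene. Fos was not tested with a minimum of 5 RPKM.

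**Figure D2:**
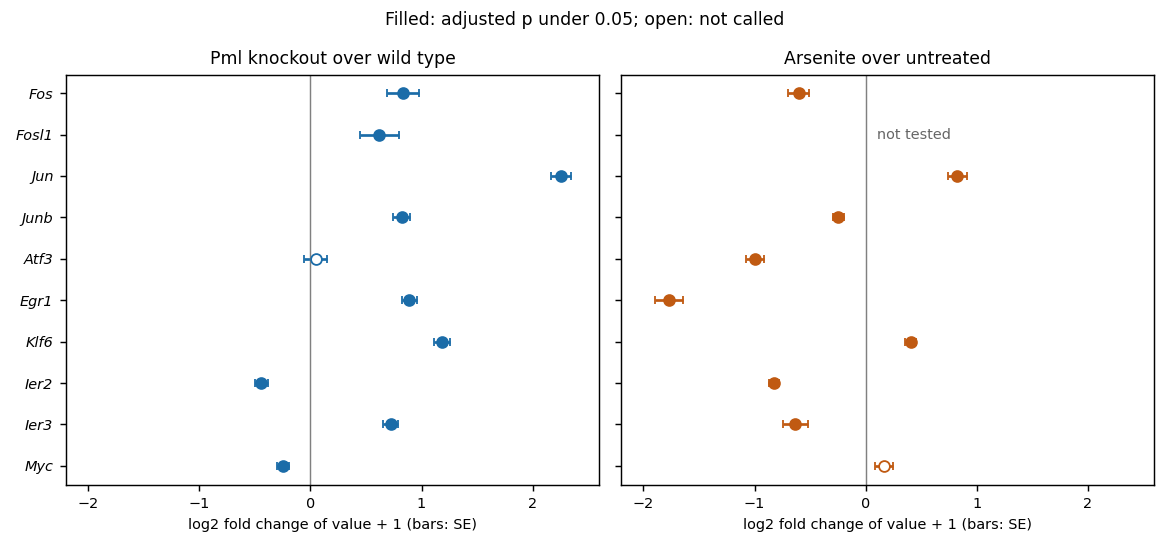
Points are log2 fold changes of value + 1 with SE, for Pml knockout over wild type on the left and arsenite over untreated on the right, filled where called. Jun and Klf6 lie right of 0 in both panels, and Fos, Junb, Egr1 and Ier3 lie on opposite sides.

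Egr1 fell furthest with arsenite. It read 5.07 and 3.74 RPKM in arsenite-treated cells, against 19.0 and 15.7 RPKM in untreated cells, with groups far apart (-1.77 ± 0.13, limma adjusted p = 2.01e-05). Atf3, which in many cell types is induced by stress, fell to 6.08 and 5.33 RPKM in arsenite-treated cells, against 12.8 and 11.9 RPKM in untreated cells (-0.995 ± 0.080, limma adjusted p = 3.12e-05). About 506 to 1232 reads lay behind the Atf3 values of each library in this table, estimated from its longest annotated transcript.

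Ier2 read 83.9 and 79.0 RPKM in arsenite-treated cells, against 149 and 141 RPKM in untreated cells (-0.82 ± 0.05, limma adjusted p = 5.53e-06). Ier3 read 3.98 and 3.24 RPKM in arsenite-treated cells, against 5.61 and 6.66 RPKM in untreated cells (-0.63 ± 0.11, limma adjusted p = 0.00162). Both treated libraries lay below both untreated libraries for each of these genes. Fos read 1.94 and 2.08 RPKM in arsenite-treated cells, against 3.39 and 3.75 RPKM in untreated cells (-0.60 ± 0.09, limma adjusted p = 7.99e-04). Junb moved least of the 6, at 33.6 and 34.5 RPKM in arsenite-treated cells, against 39.3 and 41.9 RPKM in untreated cells (-0.25 ± 0.05, limma adjusted p = 0.00262).

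Jun and Klf6 went the other way. Jun rose to 13.4 and 12.7 RPKM in arsenite-treated cells, against 7.52 and 6.33 RPKM in untreated cells (0.83 ± 0.08, limma adjusted p = 1.01e-04). Klf6 rose to 38.1 and 37.8 RPKM in arsenite-treated cells, against 29.4 and 27.3 RPKM in untreated cells (0.41 ± 0.05, limma adjusted p = 2.33e-04). The groups did not overlap for either gene, nor for any of the 9 tested, as for 84.5% of all genes. Jun made up 11.6% and 11.03% of summed Jun-family RPKM in arsenite-treated cells, against 5.85% and 4.85% in untreated cells, while Junb made up 29.2% and 30.03% in arsenite-treated cells, against 30.5% and 32.1% in untreated cells.

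Fosl1 stayed under 1 RPKM in all 4 libraries and was not tested in the main fit. Without the filter on low values it was called higher, where 5638 of 18788 genes were. It read 0.715 and 0.820 RPKM in arsenite-treated cells, against 0.387 and 0.356 RPKM in untreated cells, from about 32 to 73 reads a library. Myc read 8.86 and 8.06 RPKM in arsenite-treated cells, against 7.86 and 7.03 RPKM in untreated cells (0.16 ± 0.08, limma adjusted p = 0.106). Its share of the Myc family was 9.28% and 9.003% of summed Myc, Mycn and Mycl RPKM in arsenite-treated cells, against 3.70% and 3.38% in untreated cells. Mycn, the most abundant of the 3 here, fell to 80.0 and 73.2 RPKM in arsenite-treated cells, against 198 and 194 RPKM in untreated cells (-1.35 ± 0.05, limma adjusted p = 8.08e-07).

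Cell-type markers moved with arsenite as well. Of 8 ES-cell markers 7 fell and 1 rose, with sums of 2723 to 2837 RPKM in arsenite-treated cells, against 5178 to 5248 RPKM in untreated cells. Of 8 trophectoderm markers tested, 7 rose and 1 fell, and the sum over 11 was 171 to 174 RPKM in arsenite-treated cells, against 96.9 to 98.4 RPKM in untreated cells. Of 6 fibroblast markers 4 rose and 1 fell, and of 5 primitive endoderm markers 3 rose and 1 fell. Over all genes tested, 40.7% were called higher and 27.0% lower. Markers that reached the test only through 1 group were not set apart. The part of these cell-type markers in the results above was not tested.

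The Pml and arsenite comparisons share no libraries, so their values can be set side by side. Of the 9 genes tested in both, 7 were called in both. The share of all genes called in both was not counted, so the 7 is a description only. In the Pml comparison 16.6% of all genes tested were called higher and 18.9% lower, and with arsenite 40.7% and 27.0%. Jun and Klf6 rose in both and Ier2 fell in both, which makes 3 with the same direction. The other 4, Fos, Junb, Egr1 and Ier3, rose in Pml-knockout cells and fell with arsenite. The difference between the 2 effects was not tested, because the tables were normalised separately.

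The levels in cells without a perturbation also differed between tables. Myc read 46.2 and 46.9 FPKM in wild-type cells of the Pml table, and 7.86 and 7.03 RPKM in untreated cells of the arsenite table. Jun read 1.82 and 1.58 FPKM in the first of these and 7.52 and 6.33 RPKM in the second. Atf3 read 3.72 and 3.605 FPKM in wild-type cells of the Pml table, and 12.8 and 11.9 RPKM in untreated cells of the arsenite table. These are levels on separate scales and were not tested against each other.

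**Figure D3:**
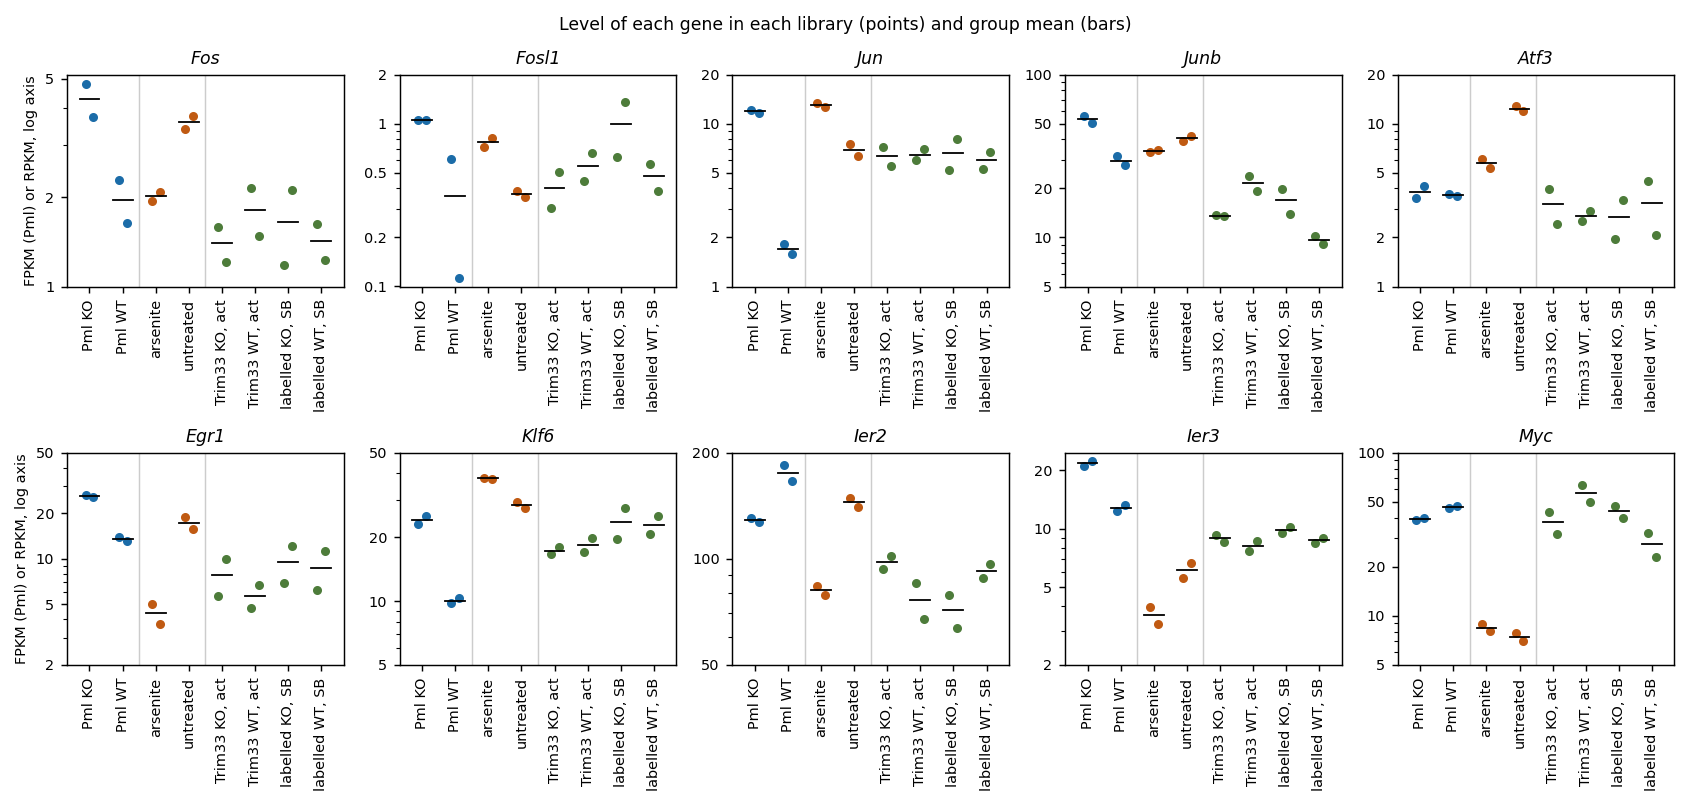
Each panel gives 1 gene, with points for libraries and bars for group means, in FPKM (Pml table, blue) or RPKM (arsenite table, orange, and Trim33 table, green) on a log axis. Jun overlaps between the activin A (act) and SB431542 (SB) groups of the Trim33 table. It is higher in Pml-knockout and in arsenite-treated cells than in the cells beside them.

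In the Trim33 table the comparison of knockout with wild-type cells under activin A addressed which genes depend on TRIM33, a chromatin-bound partner of SMAD2 and SMAD3. Of the 9 genes tested, limma called 0, where 9.43% of 11914 genes tested were called, and 3 had an unadjusted p under 0.05. The share over all genes was 1.56% to 3.0% with any 1 of the 4 libraries left out. The 3 with an unadjusted p under 0.05 were Junb, Myc and Ier2. Over all genes 3096 of 11914 had one, so 3 of 9 is near that share. With a replicate block Junb (limma adjusted p = 0.0282) and Myc (0.0159) were called, where 1584 of 11914 genes were. Whether replicate numbers pair the libraries is not settled. Only Fosl1 was not tested, with 0.304 to 1.36 RPKM over the 8 libraries.

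Junb read 13.7 and 13.5 RPKM in knockout cells with activin A, against 23.9 and 19.4 RPKM in wild-type cells with activin A (-0.63 ± 0.18, limma adjusted p = 0.0637). With SB431542 it read 19.8 and 13.9 RPKM in libraries labelled knockout, against 10.3 and 9.12 RPKM in libraries labelled wild type (0.72 ± 0.18, limma adjusted p = 0.0413). It was the only one of the 9 called there, where 3.01% of all genes were called higher (0.662% to 3.34% with 1 library left out). At each treatment both libraries with little Trim33 lay below the other 2 for Junb. The call under SB431542 was lost without any 1 of the library labelled knockout replicate 1 (adjusted p = 0.109) and the libraries labelled wild type replicate 1 (0.112) and replicate 2 (0.157). Fitted with the 2 groups alone, the activin A difference had limma adjusted p = 0.0210 and the SB431542 difference 0.0917.

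Myc read 43.6 and 31.7 RPKM in knockout cells with activin A, against 63.4 and 50.2 RPKM in wild-type cells with activin A (-0.59 ± 0.21, limma adjusted p = 0.116). It read 47.3 and 40.0 RPKM in libraries labelled knockout with SB431542, against 32.3 and 23.0 RPKM in libraries labelled wild type with SB431542 (0.66 ± 0.21, limma adjusted p = 0.0877). With a replicate block this SB431542 difference in Myc had limma adjusted p = 0.0108. The groups did not overlap at either treatment, as for 60.7% of all genes with activin A and 49.2% with SB431542. Ier2 ran the opposite way to both, at 93.5 and 102 RPKM in knockout cells with activin A, against 85.3 and 67.4 RPKM in wild-type cells with activin A (0.36 ± 0.15, limma adjusted p = 0.180). With SB431542 it read 79.2 and 63.6 RPKM in libraries labelled knockout, against 88.2 and 96.6 RPKM in libraries labelled wild type (-0.37 ± 0.15, limma adjusted p = 0.168).

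**Figure D4:**
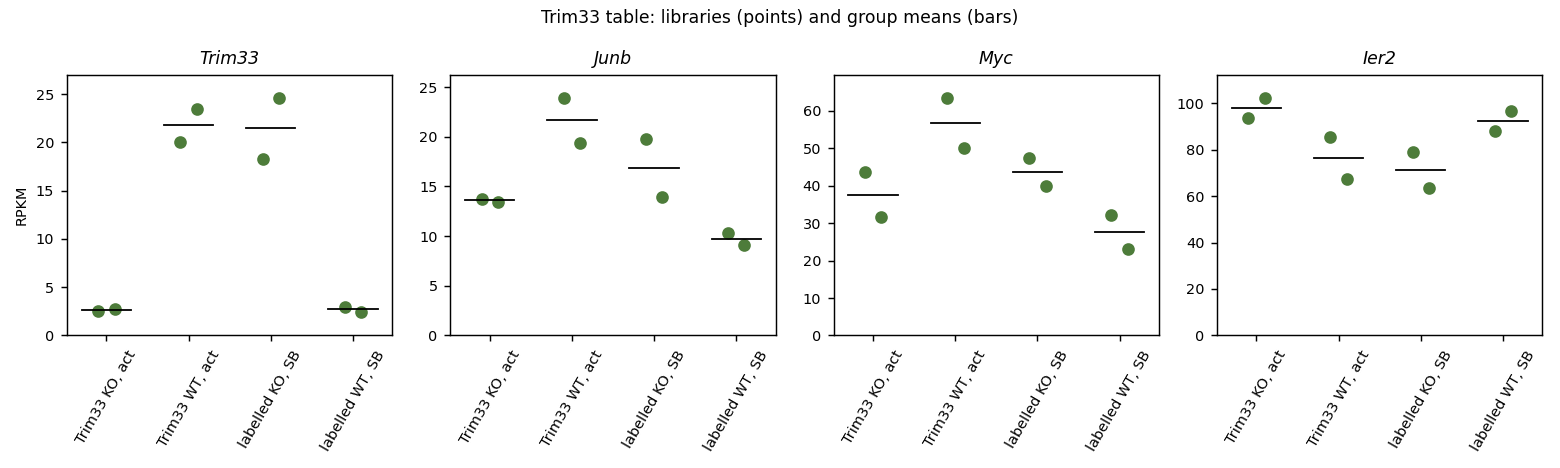
Points are the 2 libraries of each labelled group and bars their means, in RPKM from 0, with act for activin A and SB for SB431542. Trim33 is low in knockout cells with activin A and in libraries labelled wild type with SB431542, and in those 4 libraries Ier2 is at 88.2 to 102 RPKM.

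The test of whether the genotype-label difference itself differed between treatments called 3 of the 9 genes, near the 26.3% called over all genes. These were Junb (-1.35 ± 0.26, limma adjusted p = 0.00603), Myc (-1.24 ± 0.30, limma adjusted p = 0.0161) and Ier2 (0.74 ± 0.22, limma adjusted p = 0.0373). The sign is that of the activin A difference minus the SB431542 difference, and for each of the 3 the labelled differences at the 2 treatments were of like size and opposite sign. The sign, the size and the calls all rest on the SB431542 labels, which Trim33 contradicts. Leaving out 1 library, the Ier2 adjusted p ranged up to 0.141 and that of Myc up to 0.0622. Myc passed without any 1 library other than wild-type activin A replicate 1, and Ier2 passed only without that library or the library labelled knockout with SB431542 replicate 1. The Junb adjusted p stayed between 0.00299 and 0.0278 under every alternative run. Two-cell-like markers moved along the same lines: their sum over 10 genes was 9.11 to 23.3 RPKM in knockout cells with activin A, against 0.0680 to 0.223 RPKM in wild-type cells with activin A. It was 0.127 to 0.230 RPKM in libraries labelled knockout with SB431542, against 9.66 to 24.0 RPKM in libraries labelled wild type with SB431542. Their part in these differences was not tested.

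Activin A against SB431542 could be compared within a label or between groups with a like Trim33 level. Within the wild-type label, Junb (1.08 ± 0.18, limma adjusted p = 0.00887) and Myc (1.02 ± 0.21, limma adjusted p = 0.0182) were called higher with activin A, where 3.89% of all genes were (0.667% to 1.46% with 1 library left out). Trim33 differed between those groups as well. Without wild-type activin A replicate 1 both calls were lost (adjusted p = 0.0717 for Junb and 0.118 for Myc). That of Myc was also lost without wild-type activin A replicate 2 (0.0628) and without the library labelled wild type with SB431542 replicate 2 (0.0908). Within the knockout label 0 of 9 were called, where 10.5% of all genes were. Only Ier2 had an unadjusted p under 0.05 there, where 3219 of 11914 genes did. Wild-type cells with activin A and libraries labelled knockout with SB431542 both had Trim33 above 18 RPKM. Between them 0 of 9 were called, where 0.042% of all genes were, and 0 had an unadjusted p under 0.05, where 241 of 11914 did. Junb differed by 0.35 ± 0.18 and Myc by 0.37 ± 0.21 there (limma adjusted p = 1.00 for each). Between knockout cells with activin A and libraries labelled wild type with SB431542, 0 of 9 were called, where 0.0504% of all genes were. Junb alone had an unadjusted p under 0.05 there (0.45 ± 0.18, limma adjusted p = 1.00), where 195 of 11914 genes did.

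Jun, Fos, Klf6, Atf3, Egr1 and Ier3 were called in none of the contrasts of the Trim33 table. Across its 8 libraries Jun ranged over 5.15 to 8.05 RPKM and Fos over 1.18 to 2.14 RPKM. Atf3 ranged over 1.96 to 4.47 RPKM, Ier3 over 7.68 to 10.2 RPKM and Klf6 over 16.6 to 27.4 RPKM. For Klf6, activin A over SB431542 gave -0.30 ± 0.18 within the wild-type label (limma adjusted p = 0.328). Within the knockout label it gave -0.40 ± 0.18 (limma adjusted p = 0.189). Egr1 read 4.73 to 12.2 RPKM and varied within groups, with 5.72 and 10.0 RPKM in knockout cells with activin A, against 4.73 and 6.70 RPKM in wild-type cells with activin A.

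Other genes of the same response were read from lists that share some genes. Of 26 other immediate early genes tested in Pml-knockout cells, 15 rose and 2 fell, where 16.6% and 18.9% of all genes did. The leading ones were Cyr61, which encodes a matricellular protein (67.6 and 72.2 FPKM in Pml-knockout cells, against 6.76 and 6.79 FPKM in wild-type cells), Phlda1 (28.1 and 28.9 FPKM, against 6.37 and 5.84 FPKM) and Errfi1, an inhibitor of the EGF receptor (23.4 and 26.0 FPKM, against 9.08 and 9.001 FPKM). With arsenite 12 of 26 rose and 8 fell, near the 40.7% and 27.0% over all genes. Klf2 fell most, to 70.9 and 60.8 RPKM in arsenite-treated cells, against 318 and 296 RPKM in untreated cells. Cyr61 rose to 46.25 and 44.1 RPKM in arsenite-treated cells, against 10.2 and 9.92 RPKM in untreated cells, and Ctgf to 60.4 and 59.96 RPKM, against 15.2 and 14.6 RPKM.

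Feedback genes encode MAP kinase phosphatases, Sprouty-type inhibitors and mRNA decay factors. In Pml-knockout cells 10 of 20 rose and 2 fell, where 16.6% and 18.9% of all genes did. Of the 10, Dusp2 and Dusp10 reached the test only through the knockout libraries, and of the other 18 genes 8 rose and 2 fell. With arsenite 9 of 20 rose and 4 fell, where 40.7% and 27.0% of all genes did. Dusp8, among the 9, reached the test only through the treated libraries, and of the other 19 genes 8 rose and 4 fell. Dusp4, a nuclear phosphatase of MAP kinases, rose in both, by 1.44 ± 0.08 in Pml-knockout cells (limma adjusted p = 6.79e-06) and by 0.92 ± 0.05 with arsenite (limma adjusted p = 5.27e-06). Dusp5, a phosphatase of nuclear ERK, rose by 1.16 ± 0.10 in Pml-knockout cells (limma adjusted p = 4.89e-05) and by 0.84 ± 0.09 with arsenite (limma adjusted p = 1.22e-04).

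Upstream genes had list medians close to 0. Of 21 kinase, SRF, ternary complex and CREB-type genes, 5 rose and 1 fell in Pml-knockout cells, with a list median of -0.05 beside -0.02 over all genes. Elk3, a ternary complex factor, rose by 1.13 ± 0.11 (limma adjusted p = 1.27e-04), and Srf by 0.32 ± 0.07 (limma adjusted p = 0.00580). With arsenite 7 of 21 rose and 6 fell, and the list median was -0.02 beside 0.08 over all genes. The shares over all genes were 16.6% higher and 18.9% lower in Pml-knockout cells, and 40.7% and 27.0% with arsenite.

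Of 9 other AP-1 family genes tested in Pml-knockout cells, 3 rose, among them Fosl2 through the filter, and 2 fell. The small Maf gene Maff rose, while Jdp2, which encodes a repressor of AP-1, fell by 0.95 on the log2 scale (SE 0.10, limma adjusted p = 2.57e-04). With arsenite 4 of 8 rose and 2 fell, with Maff again up (0.53 ± 0.06, limma adjusted p = 2.20e-04) and Jdp2 down (-0.44 ± 0.05, limma adjusted p = 2.62e-04). Of 10 genes that AP-1 binds in other cells, 7 rose and 2 fell in Pml-knockout cells. Of the 7, Plau, Cd44 and Mmp9 reached the test only through the knockout libraries. Of the other 7 genes tested, 4 rose and 2 fell, and with a minimum of 5 FPKM 3 rose and 2 fell. Of 8 tested with arsenite, 4 rose and 3 fell, with Mmp9 reaching the test only through the treated libraries. Beside both lists, 16.6% of all genes rose and 18.9% fell in Pml-knockout cells, and 40.7% and 27.0% with arsenite.

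The other KLF genes were called lower more often than higher. Over all genes, 16.6% were called higher and 18.9% lower in Pml-knockout cells, and 40.7% and 27.0% with arsenite. In Pml-knockout cells 1 of 12 rose and 5 fell, Klf5 most (-0.81 ± 0.08, limma adjusted p = 1.24e-04). With arsenite 9 of 12 fell and 0 rose, and Klf4, a pluripotency factor, stood at 24.0 and 21.9 RPKM in arsenite-treated cells, against 169 and 159 RPKM in untreated cells (-2.79 ± 0.05, limma adjusted p = 1.62e-07). Genes of ribosome synthesis and growth that MYC binds shifted little in Pml-knockout cells, where 3 of 20 fell and 0 rose. With arsenite 12 of 20 fell and 2 rose, and the list median was -0.30 beside 0.08 over all genes. Of 13 MYC network partners, 2 rose and 3 fell in Pml-knockout cells, and 5 rose and 3 fell with arsenite. These partner counts lie near the shares over all genes. In Pml-knockout cells the calls ranged over 3 to 7 of the upstream list, 2 to 5 of the MYC partners and 1 to 6 of the MYC-bound genes across the alternatives, over 3 to 5 of the AP-1 family and over 5 to 10 of the genes that AP-1 binds.

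**Figure D5:**
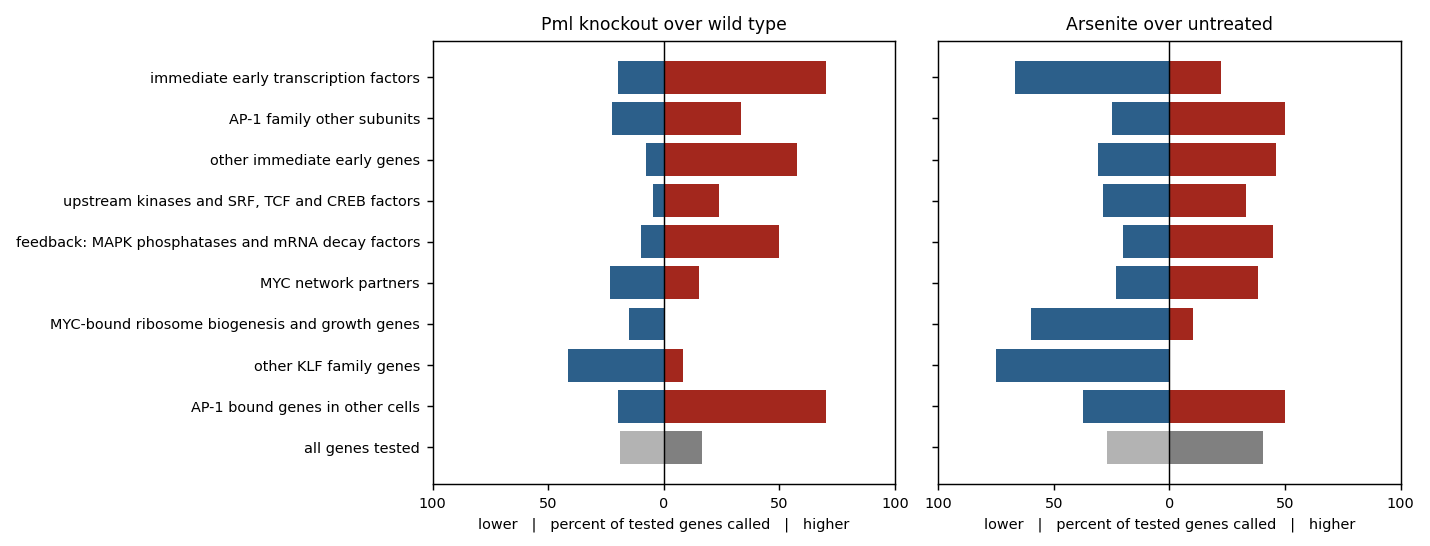
Bars give the percent of tested genes of each list called higher (right) or lower (left), for Pml knockout over wild type and arsenite over untreated, with all genes tested in grey at the bottom. The immediate early transcription factors lean right in the first panel (7 higher, Fosl1 included, and 2 lower) and left in the second (2 higher, 6 lower). Like Fosl1, some other genes counted as higher reached the test only through the knockout or treated libraries. These are Fosl2, Dusp2, Dusp10, Plau, Cd44 and Mmp9 in the first panel, and Dusp8 and Mmp9 in the second.

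Patterns were compared across the 16 libraries, centred within each table, over 10868 genes. Genes with numbered Gm or LOC names or with Rik names were passed over in naming the closest. The pattern of Jun was most like that of Tpm4 (Pearson r = 0.984), Efna5 (0.973) and Dsc2 (0.968). Among the immediate early genes themselves Jun was most like Klf6 (0.904), and Egr1 was most like Ier3 (0.823). Beyond these, Egr1 was nearest to Calm3 (0.930), Aagab (0.898) and Coro1c (0.889), and Myc to Mief1 (0.969), Mnt (0.931) and Bend3 (0.925). The libraries of a group share their treatment and cell line, so these values describe the profiles and carry no test.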

How the data were processed

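The authors deposited 3 tables with 1 column per library: FPKM values for the Pml libraries and RPKM values for the arsenite libraries, as the deposited tables are named. The unit of the Trim33 table is not named, and the deposited values were read as RPKM because value times length of single-exon genes fell on whole reads (within 0.05) for 91.8% to 97.2% of low values, as in the arsenite table (93.2% to 96.4%). Depth was recovered from the same steps. Per the submitters' processing notes, FastQC 0.11.5, Bowtie2 2.3.3, SAMtools 1.9, featureCounts 2.0.1, DESeq2 and mm10 were used, with no roles given. Columns named C in the arsenite table were taken as the untreated group. Replicates differed beyond sampling noise (chi-square over its degrees of freedom, 3.06 to 28.8, in the RPKM tables), so none was counted as a duplicate. The 27 date-like names of each table were left out.

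Genes reaching 1 in 2 or more libraries of their table were tested with limma 3.58.1 in R 4.3.3 on log2(value + 1), a scale that understates changes of low genes (eBayes with an intensity trend). Tests were two-sided, and p-values were adjusted by Benjamini-Hochberg over each table's tested genes, with a call under 0.05. Each table had its own fit, with 4 group means for the Trim33 table. Alternatives were another pseudocount (0.1), no filter or a minimum of 5, TMM or quantile scaling, no trend, a replicate block, only the 2 groups compared, and leaving out each library. Fits were also run on simulated data drawn from limma's own model of the spread. Those data hold no shared culture or clone effect, so they cannot test for one. Members and lists were chosen with earlier results of these data known. Named genes are the 10 members, up to 3 called genes of each list with the largest change and no overlap, and for likeness the 3 closest genes to Jun, Egr1 and Myc; fewer were named. Locations are from GENCODE annotation of GRCm38. With 2 libraries a group, error rests on the spread limma shares between genes.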

Additional observations from a re-analysis of the deposited data

Results flagged for a closer look

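In limma's interaction test, 3 of the 9 immediate early genes tested with Trim33 had a genotype-label difference with activin A that differed from the one with SB431542, where 26.3% of all genes did, so the share is near that of all genes. Junb differed by -1.35 on the log2 scale, Myc by -1.24 and Ier2 by 0.74. Sign, size and calls all rest on the SB431542 labels, which Trim33 contradicts: for each gene the labelled differences at the 2 treatments were of like size and opposite sign.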

How the results depend on the processing

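For the count of immediate early genes called, each setting other than leaving out libraries gave a count within 1.5 times the reported one for Pml knockout, arsenite and the interaction. It was 0 under every setting within the knockout label and between groups of like Trim33 level. Knockout over wild type with activin A gave 2 calls with a replicate block (Junb, adjusted p = 0.0282, and Myc, 0.0159) and 1 with the 2 groups alone. Labelled knockout over labelled wild type with SB431542 gave 0 without the filter, with quantile normalization, without the intensity trend and with the 2 groups alone, and 2 with a replicate block (Junb, 0.0181, and Myc, 0.0108). Wild type with activin A over labelled wild type with SB431542 gave 1 without the filter. Leaving out 1 library gave 7 to 9 calls for Pml knockout, 8 for arsenite, 0 to 1 for labelled knockout over labelled wild type with SB431542, 0 to 2 for wild type with activin A over labelled wild type with SB431542, 2 to 3 for the interaction and 0 for the other 4 contrasts. Where this leaves 1 library in a group, that library is assumed to vary like the others. Of 963 gene values under alternatives, 26 lost their call and 4 gained one, none turned a called direction, and 58 changed sign with neither value called. Of 864 list counts 143 moved. Quantile normalization gave 57.9% higher among all calls for knockout over wild type with activin A (70.1% as reported), 41.7% with SB431542 (31.5%), 57.8% within the knockout label (68.6%) and 49.5% for the interaction (61.5%). Over all genes, fitting the 2 groups alone called 1852 (1123 as reported) for knockout over wild type with activin A, 608 (1139) for the labelled groups with SB431542, 753 (1248) within the knockout label and 1 (6) for knockout with activin A over labelled wild type with SB431542. For the last of these the count without the filter was 2, and for wild type with activin A over labelled knockout with SB431542 it was 1 (5), or 9 with a replicate block. Leaving out 1 library, the share of all genes called was 1.56% to 3.0% for knockout over wild type with activin A, 2.49% to 8.73% for the labelled groups with SB431542, 2.26% to 4.78% within the wild-type label, 1.95% to 8.57% within the knockout label and 15.6% to 28.6% for the interaction. Whether replicate numbers pair the samples is not settled. Deviations of same-numbered libraries correlated at 0.023 in the Pml table. In the Trim33 table they correlated at 0.602 and 0.368 between groups of like Trim33 level, and at -0.14 to 0.207 between the others. In the arsenite table the untreated columns carry no sample's number, so a replicate block was not run there. Depth limits Fosl1 (20 to 85 reads in the Trim33 table) and Fos (79 to 150).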
